A study of Mus musculus with 31 samples.

Results

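The comparison described here is insulin against saline in livers of mice that lack ERRα (ERRα KO). Its members were chosen by their labels as all ERRα KO livers of the insulin experiment, 4 given saline (replicates 1 to 4) and 3 given insulin (replicates 1, 2 and 4), which are 7 of the 31 samples of the series and 7 of the 15 livers of that experiment. The other 8 livers came from wild-type (WT) mice, 4 given saline and 4 given insulin, and are used only to show which responses to insulin the genotypes shared. ERRα KO and WT mice had a C57BL/6N background, and the study describes its mice as age-matched male littermates 2 to 3 months old unless stated otherwise. After an overnight fast of 12 h each mouse received an intraperitoneal injection, either saline or insulin at 1 unit/kg, and livers were taken 4 h later. No tissue-specific Cre is described for these mice, so an effect of ERRα loss in the liver and one of its loss in other tissues cannot be told apart. Hepatic RNA was sequenced from read pairs, and reads were counted per gene. Total counts per liver ranged from 39250853 to 48317108 with saline and from 38156804 to 40067603 with insulin.

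Insulin acts on hepatocytes through its receptor and the kinase AKT, which keeps FoxO transcription factors out of the nucleus and thereby lowers transcription of genes of fasting such as those of gluconeogenesis. It also raises the activity of SREBP1c, a factor that turns on genes of lipid synthesis. ERRα (estrogen-related receptor alpha) is an orphan nuclear receptor that binds near genes of mitochondrial energy metabolism and works with the coactivator PGC-1α.

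*Esrra* (ENSMUSG00000024955; GRCm38 chromosome 19, minus strand) encodes ERRα. CPM values (counts scaled to library size after TMM normalization) of *Esrra* were 1.63, 0.703, 1.15 and 1.04 in the ERRα KO livers given saline and 0.833, 0.576 and 0.298 in those given insulin. Every ERRα KO liver was far below the 8 WT livers, which had 32.3 to 96.4 CPM of *Esrra*, so no liver went against its label. Within the ERRα KO livers the log2 fold change with insulin was −0.99 (SE 0.52, adjusted p = 0.354) and the groups overlapped. Hepatocyte markers were abundant in all 7 livers except for *Trf*, which had at most 34.2 CPM (insulin replicate 1). The 10 hepatocyte genes examined, led by *Alb*, summed to 130769, 98708, 134811 and 102767 CPM with saline and 129260.0, 130369 and 122772 CPM with insulin, and none of the 10 was called by the test described next. Without saline replicate 3 *Cps1*, a urea cycle enzyme among the 10, was called higher (log2 fold change 0.94, adjusted p = 0.0377, against 0.74 and 0.146 with all livers).

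Replicate 3 of the saline group stood apart from the other 6 livers. On the second principal component of log2 CPM, which held 20.1% of the variance, it lay at −64.1 and the other livers between 0.24 and 26.8. It was the most deeply counted liver, and 3.91% of its counts fell on genes of the mitochondrial genome against 3.16 to 3.21% in the other saline livers. The first component, with 28.8% of the variance, separated the treatments, with saline livers at −42.0 to −7.70 and insulin livers at 21.9 to 47.7. All 7 livers were kept, and named genes whose calls change without saline replicate 3 are given both ways.

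**Figure D1:**
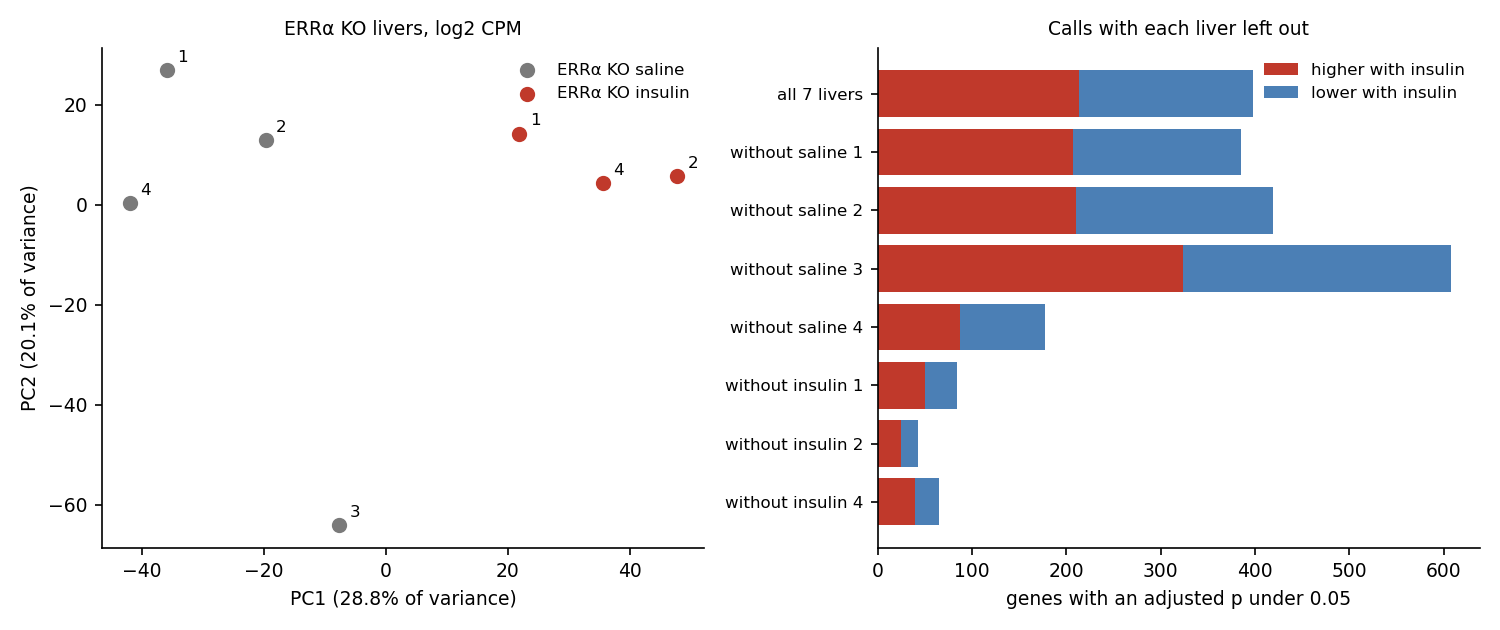
Left, the 7 ERRα KO livers on the first and second principal components of log2 CPM, numbered by replicate; right, bars give the number of genes with an adjusted p under 0.05 with all livers (398) and with each liver left out in turn. Saline replicate 3 lies apart at the bottom of the left panel, and the bars run from 42 genes without insulin replicate 2 to 608 without saline replicate 3.

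Genes that responded to insulin without ERRα were sought over 13684 genes with the quasi-likelihood test of edgeR, its p-values adjusted by Benjamini-Hochberg, and "called" below means an adjusted p under 0.05 in that test. A total of 398 genes (2.91%) were called, 213 higher with insulin (1.56%) and 185 lower (1.35%). The median log2 fold change was 0.81 among the genes that rose and −0.87 among those that fell, against −0.02 over all genes tested, and 70 rises and 65 falls were at least 2-fold. Of the 398 genes, 393 are annotated as protein coding. CPM of the saline and insulin livers did not overlap in 397 of the 398, and in 17.6% of all genes tested. The study's own looser criterion was a fold change of 1.2 or more and an unadjusted p under 0.05 with DESeq2. Applied here to the edgeR test, that criterion was passed by 2353 genes (2455 with DESeq2). By it, 8.05% of the genes tested were higher and 9.14% were lower. With single livers left out these shares ran from 5.41 to 8.99% and from 6.85 to 9.48%, both lowest without insulin replicate 2 and highest without saline replicate 3. The adjusted count rested on single livers, at 608 without saline replicate 3, 177 without saline replicate 4, and 84, 42 and 65 without insulin replicates 1, 2 and 4. With each of the 7 livers left out in turn, 34 of the 398 genes were called every time. Among the 61 called genes that the naming rule picked, partly for a small p or a large change, 14 were.

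Those 14 were *Mdm1*, *Fam107a*, *Cd14*, *Mbnl2*, *Emd*, *Erbb3*, *Tbc1d30*, *Sesn1*, *Tsc1* and *Plin5*, which rose, and *Klhdc7a*, *Noct*, *Nr3c2* and *Plin2*, which fell. The smallest adjusted p, 0.00328, was shared by 6 genes, in order of unadjusted p *Mbnl2*, *Noct*, *Nr3c2*, *Erbb3*, *Emd* and *Klhdc7a*, the last of which is described below. *Mbnl2* (ENSMUSG00000022139; chromosome 14, 120275669 to 120431697), a regulator of alternative splicing, had 55.2, 47.3, 38.5 and 34.5 CPM with saline and 123, 146 and 130.1 CPM with insulin. All 3 insulin livers were above all 4 saline livers, with a log2 fold change of 1.60 (SE 0.16). *Noct* (ENSMUSG00000023087; chromosome 3, 51224447 to 51251644), a rhythmically expressed phosphatase of NADPH, had 27.1, 36.5, 37.9 and 33.6 CPM with saline and 6.32, 11.0 and 6.89 CPM with insulin. All insulin livers were below all saline livers, with a log2 fold change of −2.07 (SE 0.21). *Nr3c2*, the mineralocorticoid receptor, fell from between 15.9 and 18.8 CPM to between 6.20 and 7.29 CPM (log2 fold change −1.33, SE 0.14). *Erbb3*, a receptor of the EGF receptor family, had 154, 157, 170.3 and 154 CPM with saline and 325, 306 and 313 CPM with insulin (log2 fold change 0.99, SE 0.10). *Emd*, which encodes the inner nuclear membrane protein emerin, rose from between 10.2 and 11.7 CPM to between 24.5 and 33.0 CPM (log2 fold change 1.32, SE 0.14).

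*Mdm1*, a microtubule-binding protein of centrioles, had 0.997, 0.364, 0.957 and 1.11 CPM with saline and 4.92, 6.45 and 6.24 CPM with insulin. Its log2 fold change was the largest of the 10 named rises, at 2.77 (SE 0.34, adjusted p = 0.00480). Groups that do not overlap were a condition for the named rises and falls. *Fam107a*, an actin-associated protein, had 4.22, 1.96, 2.22 and 1.60 CPM with saline and 14.7, 19.4 and 13.4 CPM with insulin. It rose by 2.66 on the log2 scale (SE 0.30, adjusted p = 0.00396). *Ddit4*, whose product REDD1 restrains the kinase complex mTORC1, had 45.9, 17.7, 46.9 and 29.8 CPM with saline and 152, 296 and 78.5 CPM with insulin. Its insulin livers were widely spread, replicate 2 being the highest and replicate 4 the lowest (log2 fold change 2.32, SE 0.42, adjusted p = 0.0190, 0.0139 to 0.107 with single livers left out). *Lpin1* (ENSMUSG00000020593; chromosome 12, 16535669 to 16610966), which encodes a phosphatidate phosphatase and coactivator, was the most abundant of the 10, with 464, 221, 545 and 319 CPM with saline and 1132, 1897 and 1662 CPM with insulin. Its lowest insulin liver was about 2 times its highest saline liver (log2 fold change 2.01, SE 0.28, adjusted p = 0.00758, 0.00294 to 0.0539 with single livers left out).

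The other named rises were those of 6 genes. *Cd14*, the coreceptor for bacterial lipopolysaccharide, rose from between 1.94 and 4.85 CPM to between 12.7 and 18.8 CPM (log2 fold change 2.26, adjusted p = 0.00443), and *Cd300lf*, a receptor of myeloid cells, from between 0.461 and 1.31 CPM to between 2.73 and 3.93 CPM (log2 fold change 1.81, adjusted p = 0.0279). In bulk liver, a gain in the number of cells of a type and a gain of RNA per cell cannot be told apart, and the same holds for losses. None of the 12 markers of Kupffer cells and macrophages was called, where 2.91% of all genes were. Log2 fold changes were above 0 for 11 of the 12 (median 0.16), beside 6477 of all 13684 genes. By the looser criterion none passed with all livers, and 4 were higher without insulin replicate 1, beside 6.77% of all genes. The summed level of the 12 was 258 to 308 CPM with saline and 249.7 to 376 CPM with insulin, with *Clec4f* the most abundant. *Hapln1*, which links hyaluronan to proteoglycans, rose by 1.96 on the log2 scale (adjusted p = 0.0409). *Pmvk*, phosphomevalonate kinase of cholesterol synthesis, rose from between 4.94 and 11.9 CPM to between 19.6 and 42.5 CPM (log2 fold change 1.92, adjusted p = 0.0111). *Arhgef37*, a guanine nucleotide exchange factor, rose by 1.85 (adjusted p = 0.00924). *Phf11c* rose by 1.90 (adjusted p = 0.0280), with insulin replicate 2 at 31.1 CPM and the other insulin livers at 10.2 and 11.8.

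The largest named falls were larger in size than the rises, while the medians over all called falls and rises were −0.87 and 0.81. These genes needed a mean of 1 CPM in either group only, so a fall could end near 0 CPM. *Klhdc7a* (ENSMUSG00000078234; chromosome 4, 139960220 to 139968026), which encodes a kelch domain protein, had 21.0, 26.8, 17.4 and 57.8 CPM with saline and 1.80, 1.37 and 2.06 CPM with insulin. The groups lay far apart, with a log2 fold change of −4.14 (SE 0.43, adjusted p = 0.00328), and the call held with each liver left out (adjusted p up to 0.0346). *Atp2b2*, a calcium pump of the plasma membrane, had 1.89, 3.18, 3.13 and 11.1 CPM with saline and 0.494, 0.247 and 0.244 CPM with insulin. Saline replicate 4 was the highest, and the log2 fold change was −3.86 (SE 0.66, adjusted p = 0.0171, 0.00988 to 0.112 with single livers left out). *Paqr7*, a membrane receptor for progestins, had 52.9, 90.1, 35.6 and 69.6 CPM with saline and 16.5, 12.0 and 10.6 CPM with insulin. It fell by 2.25 on the log2 scale (SE 0.29, adjusted p = 0.00570, 0.000777 to 0.0521 with single livers left out).

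Another 6 named falls followed. The potassium channel gene *Kcnk5* fell from between 12.0 and 47.4 CPM to between 5.19 and 6.63 CPM (log2 fold change −2.28, adjusted p = 0.0172), and *Abcd2*, a peroxisomal transporter of very long-chain fatty acids, fell too (log2 fold change −2.14, adjusted p = 0.0279). *Chil3*, a chitinase-like protein of macrophages, fell by 3.42 (adjusted p = 0.0466) from 0.544 to 2.48 CPM, with at most 8 counts in any insulin liver. The transcription factor *Rfx2* fell by 2.22 (adjusted p = 0.0273) and *Spsb4*, which encodes an adaptor of a ubiquitin ligase, by 2.20 (adjusted p = 0.0172). *Tcf24* fell by 4.17 (adjusted p = 0.0492), but its saline livers ran from 0.485 to 8.38 CPM with replicate 3 the highest, and without that liver the adjusted p was 0.0561.

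**Figure D2:**
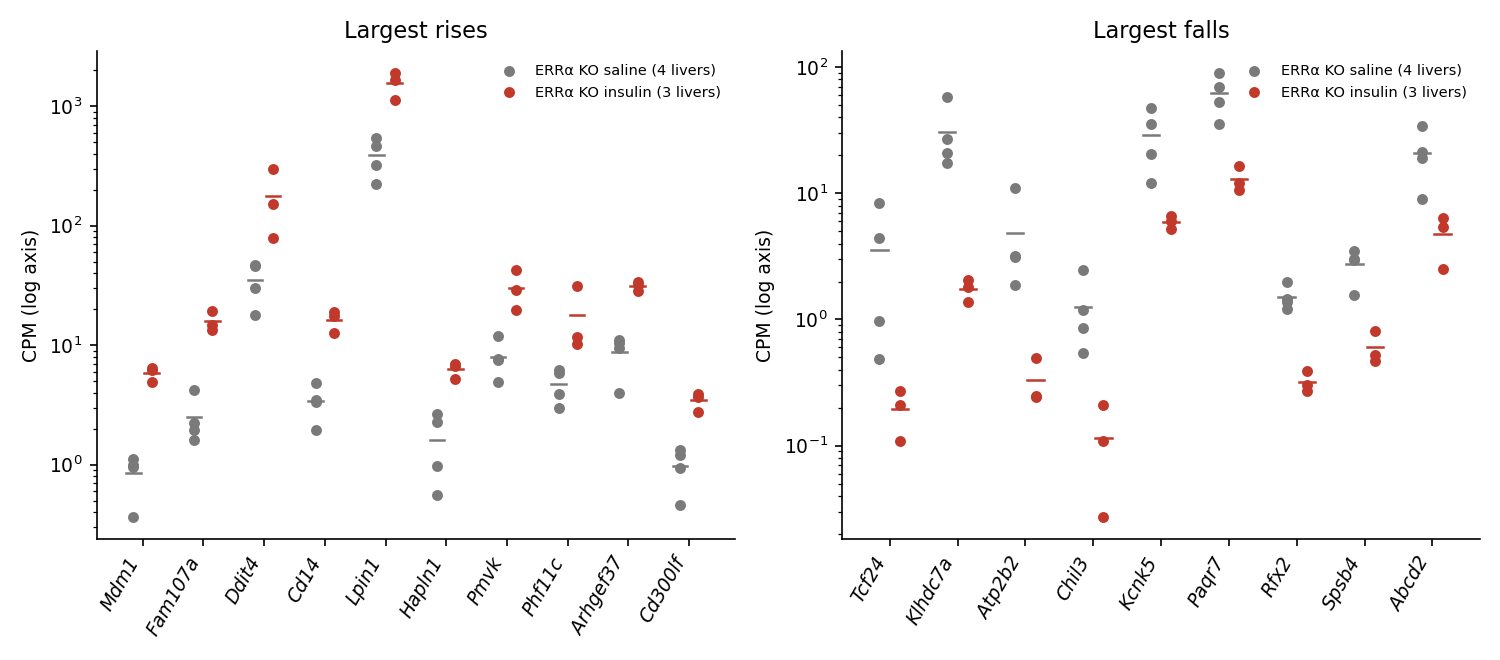
CPM on a log axis of 10 of the largest rises (left) and 9 of the largest falls (right) in each ERRα KO liver, with a short line at each group's mean. The genes were chosen among called genes for groups that do not overlap, from *Mdm1* at a log2 fold change of 2.77 to *Tcf24* at −4.17.

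Among genes well known to respond to insulin in the liver, *Irs2* and *Pdk4* were called, both higher with insulin. *Irs2*, an adaptor of the insulin receptor that FoxO factors turn on, had 38.8, 36.6, 43.1 and 22.9 CPM with saline and 49.3, 82.5 and 73.4 CPM with insulin. All insulin livers were above all saline livers (log2 fold change 0.95, SE 0.22, adjusted p = 0.0466), but the adjusted p ran from 0.0265 to 0.223 with single livers left out and stayed under 0.05 in 1 of those 7 fits. *Pdk4*, a kinase that shuts off pyruvate oxidation in fasting, had 13.4, 7.83, 10.2 and 4.21 CPM with saline and 19.9, 28.9 and 22.7 CPM with insulin. It rose by 1.42 (SE 0.31, adjusted p = 0.0364; 0.0207 to 0.183 with single livers left out).

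The others described here were not called. *Srebf1*, which encodes SREBP1c, had 28.5, 27.6, 27.1 and 42.9 CPM with saline and 14.8, 20.4 and 20.3 CPM with insulin. All insulin livers were below all saline livers, with saline replicate 4 highest, where groups did not overlap in 17.6% of all genes tested. The log2 fold change of −0.77 (SE 0.19) had an adjusted p of 0.0560, or 0.0360 without saline replicate 3. *Igfbp1*, a secreted binding protein of insulin-like growth factors that insulin represses, had 883, 166, 1161 and 358 CPM with saline and 953, 2243 and 1522 CPM with insulin. The groups overlapped, saline replicate 3 being above insulin replicate 1 (log2 fold change 1.29, SE 0.53, adjusted p = 0.238). The gluconeogenic genes *G6pc* and *Pck1*, for glucose-6-phosphatase and phosphoenolpyruvate carboxykinase, had log2 fold changes of 0.82 (adjusted p = 0.114) and 0.24 (adjusted p = 0.364).

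*Ppargc1a*, which encodes PGC-1α, had 26.1, 20.9, 70.9 and 19.8 CPM with saline and 46.3, 56.2 and 56.1 CPM with insulin. Saline replicate 3 was above every insulin liver while the other 3 saline livers were below them. With all livers its log2 fold change was 0.61 (SE 0.39, adjusted p = 0.451), and without saline replicate 3 it was 1.25 (adjusted p = 0.00211). *G6pc* was also called without that liver (log2 fold change 1.00, adjusted p = 0.0408), whereas *Igfbp1* and *Pck1* were not (adjusted p = 0.0857 and 0.171).

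**Figure D3:**
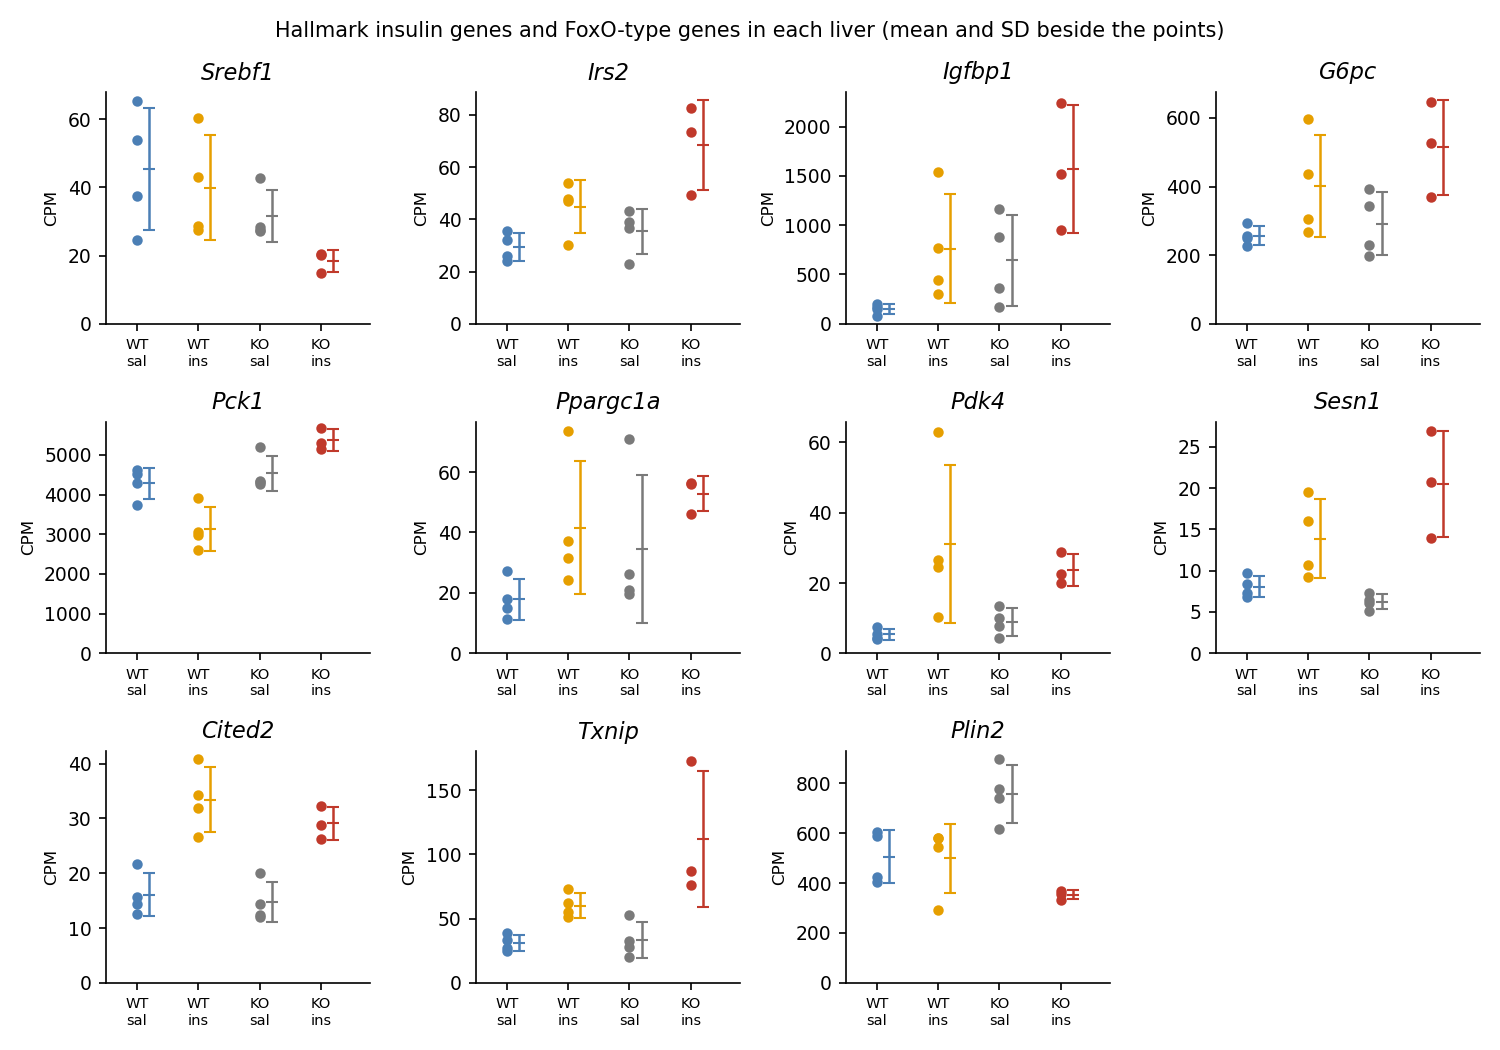
CPM of 11 genes in each WT and ERRα KO liver given saline (sal) or insulin (ins), with the mean and SD beside the points of each group. *Irs2*, *Pdk4*, *Sesn1*, *Cited2* and *Txnip* are higher and *Plin2* lower in all 3 ERRα KO livers given insulin than in all 4 given saline, and *Ppargc1a* has 1 saline liver at 70.9 CPM above the insulin livers. Among all genes tested in ERRα KO liver, the groups did not overlap in 17.6%.

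Gene lists by function placed these genes among their neighbours. Counts of called members stand beside 2.91% called among all genes tested, and the range after a list's median is that over the fits with single livers left out. Among 28 tested genes of insulin signalling and FoxO feedback, 5 rose and 1 fell, and the median log2 fold change was 0.27 (range 0.15 to 0.34, lowest without insulin replicate 2). *Sesn1*, a leucine-sensing inhibitor of mTORC1 and FoxO target, had 5.14, 6.40, 7.35 and 6.05 CPM with saline and 14.0, 26.9 and 20.7 CPM with insulin (log2 fold change 1.71, SE 0.21, adjusted p = 0.00502). *Tsc1*, a subunit of a complex that also restrains mTORC1, had 23.0, 31.9, 30.3 and 24.7 CPM with saline and 60.4, 48.8 and 53.9 CPM with insulin (log2 fold change 0.98, SE 0.14, adjusted p = 0.00758). *Socs2*, a feedback inhibitor of growth hormone signalling (log2 fold change 1.37, adjusted p = 0.0196), and *Cited2*, a transcriptional coregulator (0.98, adjusted p = 0.0205), also rose. *Pik3r1*, the regulatory subunit of PI3 kinase, fell by 0.64 (adjusted p = 0.0422). Among 15 genes of the glucocorticoid response, 2 rose, none fell and the median was 0.42 (range 0.20 to 0.52, lowest without insulin replicate 2). They were *Ddit4*, given above, and *Fkbp5*, a cochaperone that dampens the glucocorticoid receptor, at 244, 164, 180.1 and 145 CPM with saline and 384, 534 and 485 CPM with insulin (log2 fold change 1.35, SE 0.18, adjusted p = 0.00643, 0.00494 to 0.0521 with single livers left out).

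Genes of glucose use and production are given next. *Txnip*, an inhibitor of glucose uptake, had 52.7, 32.8, 27.7 and 20.1 CPM with saline and 87.3, 173 and 76.2 CPM with insulin. It rose (log2 fold change 1.75, SE 0.33, adjusted p = 0.0237, 0.0126 to 0.120 with single livers left out) together with *Aldoa*, the aldolase most abundant in muscle (log2 fold change 0.61, adjusted p = 0.0350), as 2 of 23 glycolysis and glucose uptake genes (median −0.03, range −0.12 to 0.01). Of 21 gluconeogenesis genes, 1 rose and 1 fell (median 0.04, range 0.01 to 0.09). *Got1*, the cytosolic aspartate aminotransferase, had 308, 298, 763 and 222 CPM with saline and 1034, 1506 and 1269 CPM with insulin. Saline replicate 3 was well above the other saline livers and still below the insulin livers, and the log2 fold change was 1.67 (SE 0.36, adjusted p = 0.0354; 0.000777 to 0.167 with single livers left out) with that liver and 2.20 (adjusted p = 0.000777) without it. *Aqp9*, the glycerol channel of hepatocytes, fell from between 451 and 544 CPM to between 324 and 359 CPM (log2 fold change −0.57, adjusted p = 0.0280). None of 19 glycogen metabolism genes was called (median −0.06, range −0.09 to −0.03), the smallest adjusted p being 0.0597 for *Ppp1r3g*, a glycogen-targeting subunit of protein phosphatase 1 (log2 fold change 2.34). *Ppp1r3g* was called without saline replicate 3 (log2 fold change 2.60, adjusted p = 0.0404), and its adjusted p ran from 0.0279 to 0.236 over the fits with single livers left out.

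RefSeq promoters (GRCm38.p6) of the same 61 called genes were searched for the short core of the ERR element (AAGGTCA), a FoxO element (TGTTTAC) and the cAMP response element (TGACGTCA) on both strands of the 250 bases before the start. Of the 61 genes, 47 had a promoter in the table outside a chromosome that was left out, with 63 promoters, and 2 of these held a motif. That chromosome was kept in the shares given below. They are shown because *Got1* was called higher in both genotypes and its promoter holds the letters of an ERR element. *Txnip* rose with insulin and its promoter holds the letters of a FoxO element. Any part of these motifs in the responses was not tested. Capitals mark the motif. Among the 13310 promoters of genes tested, 3.01% held the ERR letters, 2.52% the FoxO letters and 2.46% the cAMP letters in these 250 bases, and among all 32851 promoters of the table the shares were 4.08, 3.17 and 1.55%. The *Got1* promoter is chr19:43524606-43524855 on the minus strand and that of *Txnip* is chr3:96557707-96557956 on the plus strand.
Got1: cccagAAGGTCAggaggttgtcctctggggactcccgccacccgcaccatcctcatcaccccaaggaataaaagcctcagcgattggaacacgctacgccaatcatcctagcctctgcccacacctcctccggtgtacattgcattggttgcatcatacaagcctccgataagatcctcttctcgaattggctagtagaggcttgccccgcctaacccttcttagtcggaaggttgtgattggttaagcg
Txnip: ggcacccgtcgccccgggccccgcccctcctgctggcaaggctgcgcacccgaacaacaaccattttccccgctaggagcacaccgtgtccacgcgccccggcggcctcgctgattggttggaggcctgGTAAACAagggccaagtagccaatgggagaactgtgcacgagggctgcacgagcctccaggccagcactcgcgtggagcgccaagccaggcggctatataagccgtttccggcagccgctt

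Genes of lipid handling were called in both directions. *Lpin1* and *Dgat1*, the acyltransferase that completes triglycerides (log2 fold change 0.51, adjusted p = 0.0312), were the 2 called of 26 genes of de novo lipogenesis, whose median was −0.10 (range −0.14 to −0.04). Of 25 genes of cholesterol synthesis and LDL uptake, 1 rose (*Pmvk*) and 1 fell. The median of that list was −0.66, 9 members passed the study's looser criterion lower and 2 higher (9.14 and 8.05% of all genes), and with single livers left out the median ran from −0.75 to −0.09, highest without saline replicate 4. Over the same fits the number lower ran from 5 without insulin replicate 2 to 12 without saline replicate 1 or 3, and the number higher from 1 to 4, highest without saline replicate 4. *Plin2*, a coat protein of lipid droplets, had 900.1, 616, 776 and 743 CPM with saline and 333, 358 and 368 CPM with insulin. All insulin livers were below all saline livers (log2 fold change −1.11, SE 0.14, adjusted p = 0.00571). *Plin5*, a droplet protein that contacts mitochondria, went the other way, from 110.0, 116, 137 and 91.6 CPM with saline to 233, 293 and 245 CPM with insulin (log2 fold change 1.17, SE 0.15, adjusted p = 0.00503). The related *Plin4* (log2 fold change 0.91, adjusted p = 0.0290) and the triglyceride lipase gene *Pnpla2* (0.58, adjusted p = 0.0395) also rose, and with *Plin5* they were the 3 called of 23 genes in the list of lipoproteins and lipid droplets (median 0.02, range −0.11 to 0.07), which does not hold *Plin2*.

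Of 39 genes of fatty acid oxidation and ketogenesis, *Pdk4* rose and *Plin2*, which was placed in this list, and *Bdh1*, an enzyme of ketone bodies, fell (median −0.06, range −0.10 to −0.02). *Bdh1* had 209, 188, 187 and 219.6 CPM with saline and 91.2, 113 and 126 CPM with insulin, without overlap (log2 fold change −0.87, SE 0.13, adjusted p = 0.0104, 0.00716 to 0.0702 with single livers left out). By the same edgeR test none of 76 nuclear genes for OXPHOS subunits, 12 of the mitochondrial genome and 22 of the TCA cycle was called, where 2.91% of all genes were, and the medians were −0.08 (range −0.14 to 0.02), 0.04 (range 0.00 to 0.15) and 0.06 (range 0.05 to 0.09). By the looser criterion the same lists had 0, 1 and 3 genes higher and 2, 0 and 2 lower with all livers (8.05 and 9.14% of all genes), and from 0 to 4 higher or lower with single livers left out. Their smallest adjusted p-values were 0.158 for *Suclg2* and 0.183 for *Idh2*, both TCA cycle enzymes, 0.238 and 0.271 for the ATP synthase genes *Atp5h* and *Atp5e*, and 0.253 and 0.330 for *mt-Atp6* and *mt-Nd4l* of the mitochondrial genome. Among 12 ERR receptors and coactivators tested none was called (median 0.21, range 0.12 to 0.25), with adjusted p = 0.213 for the corepressor *Nrip1* and 0.267 for the coactivator *Ncoa1*. Of 32 genes of amino acid catabolism and the urea cycle, 2 rose and none fell, and the median was 0.15 (0.06 without saline replicate 4, 0.30 without saline replicate 3). By the looser criterion 5 of them were higher with all livers, beside 8.05% of all genes, and 14 without saline replicate 3, beside 8.99%. The called genes were *Slc25a15*, the mitochondrial ornithine carrier, from between 584 and 1021 CPM to between 1454 and 1670.4 CPM (log2 fold change 0.91, adjusted p = 0.0312), and *Aass*, an enzyme of lysine breakdown, from between 489.6 and 1261 CPM to between 1835 and 2169.8 CPM (log2 fold change 1.23, adjusted p = 0.0395).

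Interferon-stimulated genes came next. Of 31 interferon-stimulated genes, 3 fell and none rose, and the median log2 fold change was −0.62 (range −0.70 to −0.43). *Igtp*, an interferon-inducible GTPase, had 16.7, 14.9, 15.8 and 21.6 CPM with saline and 7.08, 6.34 and 8.17 CPM with insulin. The groups did not overlap (log2 fold change −1.26, SE 0.17, adjusted p = 0.00588, 0.00457 to 0.0521 with single livers left out). *Ddx58*, which encodes the RNA sensor RIG-I, fell from between 26.2 and 32.1 CPM to between 15.4 and 19.5 CPM (log2 fold change −0.79, adjusted p = 0.0148), and the GTPase gene *Irgm1* from between 34.1 and 39.6 CPM to between 22.7 and 26.7 CPM (log2 fold change −0.52, adjusted p = 0.0350). By the looser criterion 14 of the 31 genes were lower and none higher, beside 9.14% and 8.05% of all genes. With single livers left out, the number lower ran from 8 without insulin replicate 1 to 18 without saline replicate 2, and was 10 without saline replicate 3. Acute phase proteins had a like median, −0.67 over 19 genes (range −0.88 to −0.37, nearest 0 without saline replicate 4). None was called with all livers, the smallest adjusted p-values being 0.0815 for the iron hormone gene *Hamp* (0.0326 to 0.272 with single livers left out) and 0.171 for the fibrinogen gene *Fgb* (0.0228 to 0.406). By the looser criterion 6 of the 19 were lower and none higher with all livers, and the number lower ran from 1 without insulin replicate 1 to 10 without saline replicate 2.

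Other lists held a single call or none. *Ccnd1*, encoding cyclin D1, had 47.5, 23.3, 36.6 and 25.7 CPM with saline and 11.9, 8.97 and 8.03 CPM with insulin. It was the 1 called gene of 21 in DNA replication and cell division (log2 fold change −1.79, SE 0.25, adjusted p = 0.00758, 0.00713 to 0.0659 with single livers left out; list median 0.07, range −0.08 to 0.13). *Cyp7b1*, a hydroxylase of the alternative bile acid pathway, had 78.8, 222, 105 and 79.5 CPM with saline and 247, 561 and 386 CPM with insulin. Saline replicate 2 lay just under the lowest insulin liver, and it was the 1 called of 17 bile acid genes (log2 fold change 1.71, SE 0.37, adjusted p = 0.0367, 0.00870 to 0.193 with single livers left out; list median 0.13, range 0.08 to 0.24). *Dbp*, a clock-controlled transcription factor, fell from between 8.38 and 17.5 CPM to between 3.65 and 6.02 CPM (log2 fold change −1.36, adjusted p = 0.0232) as the 1 called of 20 circadian genes (median 0.18, range 0.12 to 0.29). *Jund*, an AP-1 subunit, fell by 0.67 (adjusted p = 0.0312) as the 1 called of 18 immediate early genes (median 0.00, range −0.21 to 0.15), with 52.6% of its annotated exon bases shared with a predicted gene on the opposite strand. *Sesn2*, a relative of *Sesn1*, rose from between 13.7 and 20.7 CPM to between 31.3 and 68.5 CPM (log2 fold change 1.33, adjusted p = 0.0240) as the 1 called of 22 genes of the integrated stress response (median −0.18, range −0.24 to −0.05). No call was made among 45 genes of ribosome biogenesis (median 0.04, range −0.04 to 0.12; adjusted p = 0.0666 for *Ncl* and 0.105 for *Noc2l*), 31 translation factors (median 0.10, range 0.02 to 0.09; 0.190 for *Eif5b* and 0.204 for *Eef2k*) and 30 ER chaperone and unfolded protein response genes (median 0.03, range −0.08 to 0.21; 0.128 for *Dnajb9* and 0.309 for *Derl1*).

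Without saline replicate 3, the number of called members changed by more than 1.5 times in some function lists. In that fit 4.53% of all 13432 genes tested were called (2.41% higher and 2.11% lower), against 2.91% (1.56 and 1.35%) with all livers. Called higher were then 5 genes of gluconeogenesis in place of 1, 6 of amino acid catabolism and the urea cycle in place of 2, 4 of the glucocorticoid response in place of 2 and 4 of the circadian list in place of 0. In place of 0, 1 gene each of the TCA cycle, of glycogen metabolism and of ERR receptors and coactivators was called higher. Called lower were 4 genes of de novo lipogenesis in place of 0, 3 of cholesterol synthesis and LDL uptake in place of 1 and, in place of 0, 1 each of glycolysis, of glycogen metabolism and of lipoproteins and lipid droplets. Calls were lost when other livers were left out. Without insulin replicate 2, 45 of the 61 called named genes lost the call. These held every called gene of gluconeogenesis, amino acid catabolism, de novo lipogenesis, glycolysis and the glucocorticoid response. Of insulin signalling only *Sesn1* and *Tsc1* stayed called, of lipid droplets *Plin5* and of interferon-stimulated genes *Ddx58*, among the genes called with all livers. The cause was not tested.

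**Figure D4:**
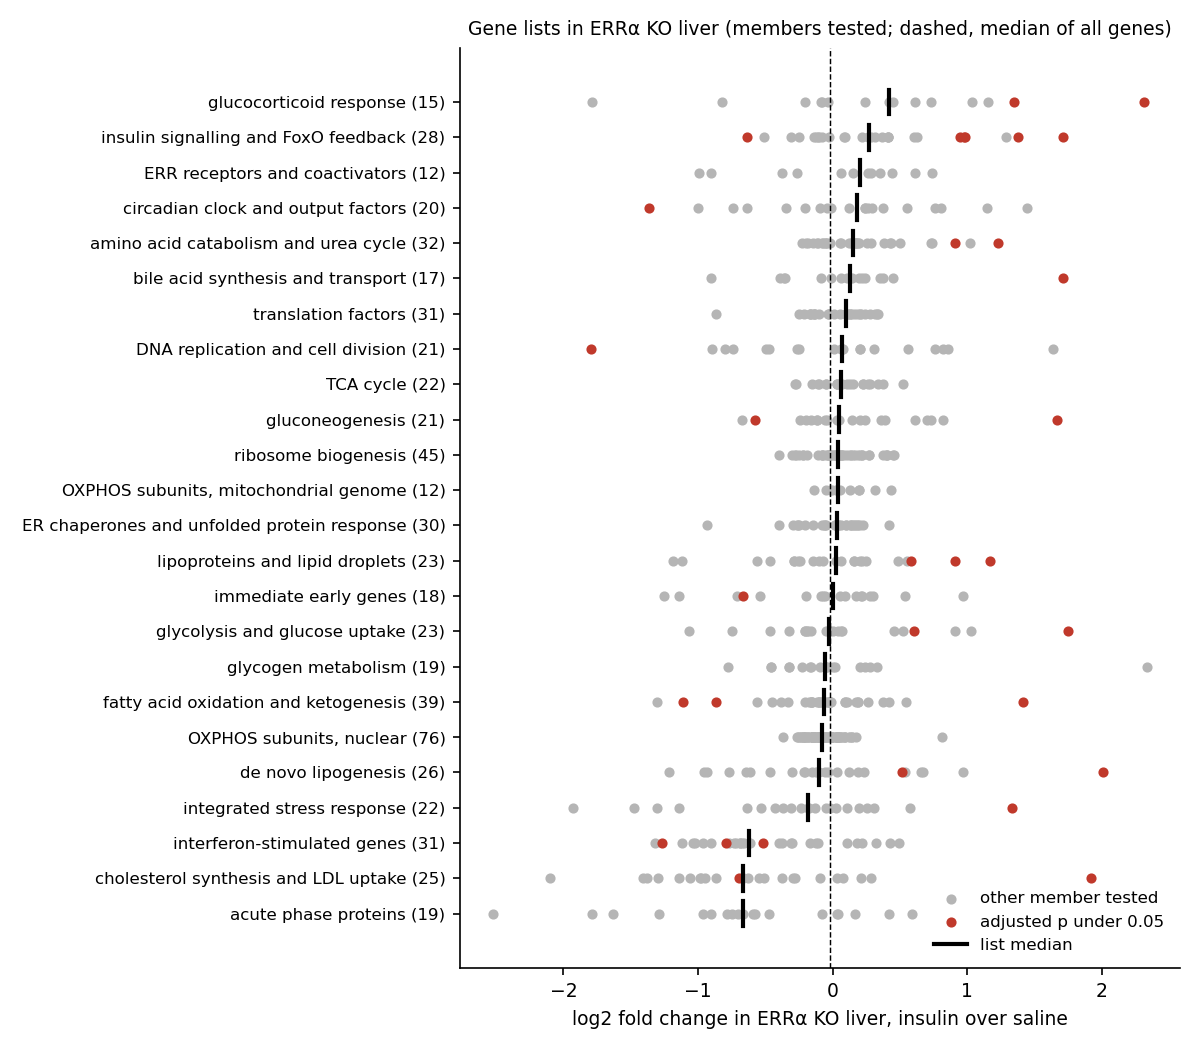
Log2 fold change with insulin of each tested member of 24 gene lists in ERRα KO liver, with called genes in red, a black bar at each list's median and a dashed line at the median of all genes (−0.02). Medians run from −0.67 for acute phase proteins to 0.42 for the glucocorticoid response.

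With the edgeR test used throughout, no gene of the 11 cell type marker lists was called, where 2.91% of all genes were. Without saline replicate 3, 1 hepatocyte marker was called higher and 6 exocrine pancreas genes were called lower, where 4.53% of all genes were called. By the looser criterion, which 8.05% of all genes passed higher and 9.14% lower, the lists with a gene passing were hepatocytes with 2 higher and 1 lower of 10, red blood cells with 1 higher of 5, lymphocytes with 2 lower of 8 and exocrine pancreas with 6 lower of 6. With single livers left out, the pancreas count stayed at 6, while the red blood cell count ran from 0 to 4, the hepatocyte counts from 1 to 3 higher and 0 to 1 lower, the lymphocyte counts from 0 to 1 in each direction, and other lists had up to 4. Summed levels of the liver endothelium list were 281 to 316 CPM with saline and 296 to 344 with insulin, of stellate cells and fibroblasts 311 to 342 and 322 to 359.8, and of cholangiocytes 20.7 to 24.2 and 23.0 to 30.5, with no called gene among 11, 11 and 5 tested. Red blood cell genes, led by *Hbb-bs*, summed to 269, 249, 150.1 and 178 CPM with saline and 249.7, 451 and 179.5 CPM with insulin. Neutrophil genes summed to at most 4.91 CPM, lymphocyte genes to at most 6.07, adipocyte genes to at most 5.54 and skeletal muscle genes to at most 5.23 in any of the 7 livers. The smallest adjusted p-values of these lists were 0.114 for *Trf*, 0.301 for *Marco*, 0.440 for *Clec4g*, 0.365 for *Des*, 0.515 for *Spp1*, 0.642 for *Retnlg*, 0.248 for *Cd8a*, 0.234 for *Hba-a2*, 0.587 for *Cfd* and 0.543 for *Mylpf*. A gene on the same strand shares 63.5% of the annotated exon bases of *Trf*.

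Exocrine pancreas genes differed widely between livers. Of the 7 genes, *Ctrb1* was the most abundant in saline replicates 1 and 4 (75.6 and 32.7 CPM) and *Cela1* in the other livers. Together the 7 summed to 286, 32.8, 4.26 and 138 CPM with saline and 10.1, 5.68 and 6.46 CPM with insulin. Saline replicates 1 and 4 were the highest and saline replicate 3 the lowest of all 7 livers, so the groups overlapped. *Ctrb1* and *Pnlip*, for a chymotrypsinogen and the pancreatic lipase, were at 0 CPM in saline replicate 3 and insulin replicate 2, where *Cela1* was at 4.13 and 5.68 CPM. The 6 genes tested had a median log2 fold change of −5.46, with adjusted p = 0.0763 for *Cela2a* and 0.0903 for *Cpa1*. Without saline replicate 3 those were 0.00692 and 0.00964. The part of these reads in the other falls was not tested.

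Which of the responses remained without ERRα was read from genes called in WT liver, since the WT and ERRα KO comparisons share no liver. In WT liver 425 of 13463 genes were called (3.16%), and 424 of these were tested in ERRα KO liver. There, 401 of the 424 (94.6%, 95% exact Clopper-Pearson interval 92.0 to 96.5, counting error only) had the WT direction, against 59.6% of all 13212 genes tested in both genotypes. A total of 289 (68.2%) did so with an unadjusted p under 0.05, none had the opposite direction with such a p, and 130 (30.7%, interval 26.3 to 35.3) were called in the same direction. Among all 13684 genes tested in ERRα KO liver, 2430 had an unadjusted p under 0.05 in either direction and 2.91% were called. The share of 30.7% rested on single livers, at 5.90% without ERRα KO insulin replicate 2, 41.0% without ERRα KO saline replicate 3 and 50.0% without WT saline replicate 4. The median log2 fold change of the 424 genes, in the WT direction, was 0.58 in ERRα KO liver and 0.92 in WT liver. With single livers of either genotype left out, the first value ran from 0.52 to 0.91. Taken the other way, 374 of the 397 genes called in ERRα KO liver and tested in WT (94.2%) had the same direction there. Of the 397, 130 were called (32.7%, or 13.1 to 59.5% with single livers of either genotype left out). The medians were 0.60 in WT liver and 0.84 in ERRα KO liver. The genotype that chose the genes thus had the larger median each time, and the choice itself favours that. The 204 genes that rose in WT liver had a median of 0.67 in ERRα KO liver against 1.00 in WT, with 191 in the WT direction. For the 220 that fell, the medians in the WT direction were 0.49 and 0.86, with 210 in the WT direction. Of the 294 genes called in WT and not in ERRα KO liver, 271 (92.2%) still had the WT direction, with a median of 0.43 in ERRα KO liver against 0.86 in WT.

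**Figure D5:**
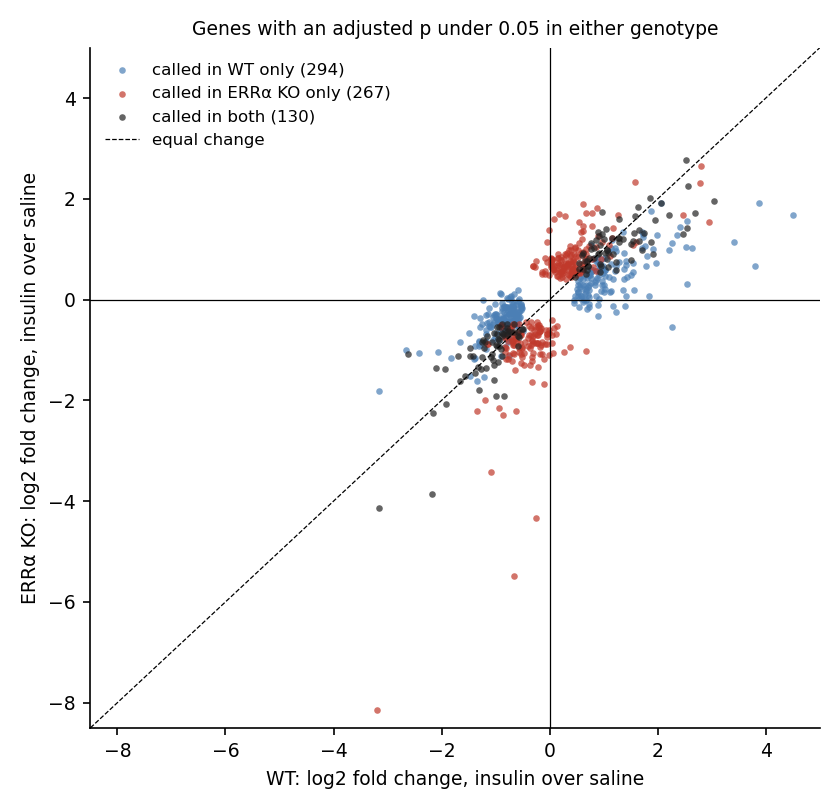
Log2 fold change with insulin in WT liver (horizontal) and in ERRα KO liver (vertical) for genes with an adjusted p under 0.05 in either genotype, coloured by where they were called, with a dashed line of equal change. The 130 genes called in both genotypes lie at the lower left and the upper right, and most genes called in 1 genotype do too.

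The genes called in both genotypes were 67 rises and 63 falls. The 10 with the largest change in the genotype where they changed less were *Klhdc7a*, *Mdm1*, *Cd14*, *Atp2b2*, *Paqr7*, *Hapln1*, *Noct*, *Pmvk*, *Lpin1* and *Btg3*. *Klhdc7a* fell by 4.14 in ERRα KO and by 3.17 in WT liver (adjusted p = 0.00328 and 0.000343), from 32.7, 26.9, 28.7 and 44.3 CPM in WT livers given saline to 5.15, 3.60, 3.32 and 2.68 CPM in those given insulin. *Lpin1* rose by 2.01 and 1.86 (adjusted p = 0.00758 and 0.0303), from 219, 476, 223 and 86.1 CPM to 787, 799.8, 887 and 1167 CPM in WT liver. *Btg3*, an antiproliferative gene, rose in ERRα KO liver by 1.72 (adjusted p = 0.0185) against 2.69 in WT liver (adjusted p = 0.00305). The change in WT liver was 2.53 for *Mdm1*, 2.56 for *Cd14*, −2.17 for *Paqr7*, 3.05 for *Hapln1*, −1.92 for *Noct* and 2.07 for *Pmvk*, each called. *Nr3c2* fell by 1.33 in both genotypes. *Pdk4*, *Plin5*, *Dbp*, *Ccnd1*, *Got1*, *Ddx58* and *Cited2* were also called in both, with changes in WT liver of 2.54, 1.66, −2.11, −1.32, 1.59, −1.24 and 1.05.

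Whether the response to insulin differed between the genotypes was tested as an interaction over all 15 livers. With edgeR none of 14670 genes passed the 0.05 threshold after Benjamini-Hochberg adjustment (smallest adjusted p = 0.389), 1289 (8.79%) had an unadjusted p under 0.05, and DESeq2 gave 20 genes with an adjusted p under 0.05. The genes below were therefore chosen for a small unadjusted interaction p among called genes, a choice that favours a difference. Of the 12 described in this and the next paragraph none had an adjusted p under 0.05 with edgeR, while all but *Washc2* (DESeq2 adjusted p = 0.0694) did with DESeq2, from 0.00122 for *Crip2* to 0.0488 for *Dapk1*, *Arl5b* and *Arsg*. The adjusted interaction p-values below are those of edgeR. Among genes called in ERRα KO liver, *Crip2*, a LIM domain protein, had 43.8, 35.4, 47.4 and 61.0 CPM with saline and 28.2, 23.3 and 22.3 CPM with insulin. In WT liver it had 28.5, 30.7, 31.4 and 30.8 CPM with saline and 37.2, 34.1, 35.3 and 51.8 CPM with insulin, and the response in ERRα KO minus that in WT was −1.31 on the log2 scale (unadjusted p = 3.68e-05, adjusted p = 0.389). *Tbc1d30*, a GTPase-activating protein gene, had 9.95, 15.8, 19.0 and 13.1 CPM with saline and 44.5, 49.4 and 42.8 CPM with insulin in ERRα KO liver. It rose by 1.65 there (adjusted p = 0.00396) against 0.28 in WT liver (adjusted p = 0.571; difference 1.37, adjusted p = 0.422). The difference was 0.90 for *Dlc1*, 1.01 for the zinc finger gene *Zfp609*, −0.80 for *Pxdc1* and 0.60 for *Washc2*, a subunit of an endosomal complex, with adjusted p = 0.422, 0.422, 0.422 and 0.422.

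Among genes called in WT liver, the smallest unadjusted interaction p-values belonged to *Stk35*, *Bicral*, *Dapk1*, *Slc25a47*, *Arl5b* and *Arsg*. *Slc25a47*, a mitochondrial carrier found mainly in liver, had 739, 599, 643 and 495 CPM with saline and 1158, 1409.7, 1446 and 1415 CPM with insulin in WT liver. In ERRα KO liver it had 962, 960.2, 696 and 1024 CPM with saline and 1020.2, 836 and 1207 CPM with insulin, so the groups were apart in WT and overlapped in ERRα KO liver (log2 fold change 1.13, adjusted p = 0.00318, against 0.16, adjusted p = 0.680; interaction adjusted p = 0.422). *Dapk1*, a kinase of cell death, fell by 0.67 in WT liver (adjusted p = 0.0151) and had 0.12 in ERRα KO liver (interaction adjusted p = 0.422). The values in WT and ERRα KO liver were −0.58 and 0.20 for the kinase gene *Stk35*, −0.92 and 0.13 for *Bicral*, −0.56 and 0.01 for the small GTPase gene *Arl5b*, and 0.68 and −0.18 for the lysosomal sulfatase gene *Arsg*.

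Some genes named for other reasons also had differing estimates. With edgeR, *Plin2* had a log2 fold change of −0.02 in WT liver against −1.11 in ERRα KO liver (interaction adjusted p = 0.422). *Cyp7b1* had 0.17 and 1.71 (interaction adjusted p = 0.506), and *Sesn1* 0.79 and 1.71 (interaction adjusted p = 0.501). Without ERRα KO saline replicate 3 the unadjusted edgeR interaction p was 0.00123 for *Pck1*, against 0.00305 for *Plin2*. No gene passed after adjustment in that fit. Over the 76 nuclear OXPHOS subunit genes the median was 0.29 in WT liver and −0.08 in ERRα KO liver (−0.14 without ERRα KO insulin replicate 1 and 0.02 without ERRα KO insulin replicate 2). Of the 76, 20 had an unadjusted edgeR interaction p under 0.05, beside 8.79% of all genes, and none passed after adjustment. The medians in WT liver were −0.35 for cholesterol synthesis, −0.27 for interferon-stimulated genes, −0.13 for acute phase proteins, −0.02 for insulin signalling and FoxO feedback and 0.88 for the glucocorticoid response. Beside them stand −0.66, −0.62, −0.67, 0.27 and 0.42 in ERRα KO liver. With single livers left out, these ran from −0.75 to −0.09, −0.70 to −0.43, −0.88 to −0.37, 0.15 to 0.34 and 0.20 to 0.52. In these lists 0 of 25, 1 of 31, 0 of 19, 6 of 28 and 2 of 15 genes had such an interaction p. The differences between list medians were not tested.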

How the data were processed

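The deposited table holds raw counts per gene. For it the authors aligned read pairs of NEBNext Ultra libraries to mm10 (GRCm38) and counted them with STAR; their own tests used DESeq2. Strand settings are not given in the sources used here, so reads of overlapping genes on opposite strands cannot be told apart: a gene on the opposite strand shares more than 10% of the exon bases of some named genes, namely 52.6% of *Jund*, 23.4% of *Ccnd1*, 20.9% of *Noc2l*, 19.4% of *Txnip*, 18.0% of *Dbp*, 17.3% of *Btg3*, 16.8% of *Eif5b*, 14.8% of *Tcf24*, 14.5% of *Spsb4*, 13.7% of *Bdh1*, 11.3% of *Bicral* and 10.5% of *Pxdc1*. A gene on the same strand shares 63.5% of the exon bases of *Trf*, 18.8% of *Spp1*, 17.7% of *Cela2a* and 13.6% of *Emd*. From the counts, edgeR 4.0.16 in R 4.3.3 gave log2 fold changes (insulin minus saline) and p-values from its quasi-likelihood test, with TMM normalization, the filterByExpr filter (minimum count 10) and Benjamini-Hochberg adjustment over all genes tested. The standard error (SE) is the size of the fold change divided by the root of the F statistic. Only the 7 ERRα KO livers entered the ERRα KO fit, only the 8 WT livers the WT fit, and all 15 the interaction. An estimate with 4 or 3 livers a group has few degrees of freedom, and the total counts above set its depth. The labels do not say that replicates are separate mice, while the study counts mice; p-values measure the spread between these samples. CPM used TMM library sizes over the 15 livers, and log2 CPM for the principal components added a prior count of 2. Intervals are exact 95% Clopper-Pearson intervals of counting error only. As a separate upper bound at 95%, a count of 0 allows up to 3 counts. Symbols and positions came from the GENCODE annotation of GRCm38, which held 34490 of the 35275 identifiers (97.8%).

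Named genes were *Esrra*; the 10 largest rises and falls among called genes whose groups did not overlap, with a mean of at least 1 CPM in a group and predicted genes left out; the called members of each list, up to 6, or else the 2 of smallest p; 10 genes called in both genotypes; 6 called in each genotype with the smallest interaction p; 8 known insulin genes; and the 5 smallest adjusted p-values. Some genes that this rule picked are left out of the text and figures, but remain in the counts and medians. The comparison, the 24 function lists and the 11 marker lists were chosen with earlier results of these data known. DESeq2 1.42.0, RLE size factors, no filter, the 4 groups fitted together, a replicate block and each liver left out were the alternatives. The count table of the ERRα3SA mice was not used.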

Additional observations from a re-analysis of the deposited data

Results flagged for a closer look

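In the saline group of 4 livers, the liver farthest from the rest was compared with the range of the group for 113 named genes and 4 library measures, and 10 of these 117 stood out, where chance gives about 1 in 20. Saline replicate 3 accounted for 5 of them. It had 70.9 CPM of *Ppargc1a* against 19.8 to 26.1 in the other saline livers, 763 CPM of *Got1* against 222 to 308, 5204 CPM of *Pck1* against 4265 to 4340 and 0.152 CPM of *Mylpf*, a muscle gene, against 0.558 to 0.604. Its share of counts on the mitochondrial genome was 3.91%, against 3.16 to 3.21%. Saline replicate 4 had 11.1 CPM of *Atp2b2* against 1.89 to 3.18, 42.9 CPM of *Srebf1* against 27.1 to 28.5 and 16.8 CPM of *Bicral* against 22.3 to 23.2. Saline replicate 1 had 39.6 CPM of *Irgm1* against 34.1 to 34.8, and saline replicate 2 had 9.12 CPM of *Plin4* against 15.1 to 16.1. No explanation of these values was tested.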

How the results depend on the processing

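The 398 called genes became 1013 with DESeq2, 640 when genes with low counts were kept, 262 with the 4 groups fitted together and 395 with RLE size factors, and DESeq2 called 397 of the 398. With single ERRα KO livers left out the number ran from 42 to 608, while genes passing the unadjusted criterion ran from 1729 to 2480 around 2353. The share of WT-called genes also called in ERRα KO liver (30.7%) was 35.7% with DESeq2, 42.6% without the filter and 19.1% with the 4 groups together, and 5.90 to 50.0% with single livers of either genotype left out. The converse share (32.7%) was 55.7% with the 4 groups together and 13.1 to 59.5% with such livers left out. The median response of WT-called genes in ERRα KO liver (0.58) was 0.42 with DESeq2, 0.43 with the 4 groups together and 0.52 to 0.91 with such livers left out (0.52 to 0.62 with ERRα KO livers), and stayed in the WT direction in every alternative. The interaction count was 20 with DESeq2 and 0 in the other alternatives run. Fewer livers, or a spread shared with WT livers, are part of these alternatives, and beyond that the cause was not tested. No named gene that was called changed sign. With the alternatives that keep all livers, 515 of 565 values of the 113 named genes kept their side of the threshold, 24 lost the call and 26 gained it, and with livers left out 609 of 788 kept it, 169 lost it and 10 gained it. Of the 61 called named genes, 12, 9, 1 and 30 lost the call without saline replicates 1 to 4, and 34, 45 and 38 without insulin replicates 1, 2 and 4.

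With the replicate number as a block, 514 genes were called, the share of WT-called genes also called was 39.9% and the median was 0.68. The numbers give no sign of pairing in ERRα KO liver, where same-numbered livers had correlations of 0.05, −0.02 and 0.02 between their deviations from the group means, and not every liver correlated best with its own number. In WT liver the same-numbered correlations were −0.03, 0.06, 0.29 and 0.22, and livers numbered 3 and 4 correlated best with their own number. The calls rest on 3 insulin livers, so a gene missing from them is not shown to be unresponsive.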

Other observations

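Among called genes outside the named ones, picked after their values were seen, the steepest falls were those of *Pnliprp1*, a pancreatic lipase-related gene, and *Csgalnact1*, an enzyme of chondroitin sulfate synthesis. *Pnliprp1* had 12.6, 2.30, 0 and 8.82 CPM with saline and 0.0260, 0 and 0.0271 CPM with insulin in ERRα KO liver. Its saline replicate 3 was at 0, so the groups overlapped, and the livers high in it were those high in exocrine pancreas genes. *Csgalnact1* had 0.446, 0.461, 0.609 and 0.643 CPM with saline and at most 1 count in any liver given insulin, while WT livers had 0.0518, 0.770, 0.982 and 0.948 CPM with saline and 0.691, 0.340, 0.335 and 0.379 CPM with insulin. In WT livers the exocrine pancreas genes summed to 1228, 60.7, 4.04 and 1661 CPM with saline and 17.7, 125, 6.88 and 203 CPM with insulin, replicates 1 and 4 being the highest saline livers in both genotypes.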
